A study of Mus musculus with 24 samples.

Results

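The major histocompatibility complex (MHC) genes of the mouse kidney were followed after experimental myocardial infarction (MI). The set held 10 of the 56941 genes in the count table, chosen by name. The class I members were the classical heavy chains H2-K1 and H2-D1, the non-classical heavy chains H2-Q10 and H2-T23, and B2m, the light chain that all of them need. The class II members were H2-Aa, H2-Ab1 and H2-Eb1, which encode chains of the peptide-binding dimers, H2-DMa, a chain of the peptide-loading factor H2-DM, and Cd74, the invariant chain. All 10 passed the count filter of edgeR and were among the 12780 genes tested.

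The kidneys came from male wild-type C57BL/6J mice aged 8 to 11 weeks at surgery. In the infarction groups the left anterior descending coronary artery was permanently ligated, without reperfusion, and the kidneys were taken 5d or 28d later. Sham mice had the same operation without ligation, and their kidneys, taken 5d after surgery, served as the control at both times, so that no sham kidney had the age or recovery time of the 28d group. The counts used were those of 22 mice, 8 in the sham group, 8 at 5d and 6 at 28d after infarction, and the replicate numbers below are those of the labels.

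MHC class I molecules sit on nearly all nucleated cells and present peptides from inside the cell to CD8 T cells, whereas class II molecules present peptides taken up from outside to CD4 T cells. Class II genes are mainly active in dendritic cells, macrophages and B cells, and in the kidney the resident macrophages and dendritic cells are the best known source, although tubule and endothelial cells can also make class II when exposed to interferon gamma. Transcription of both classes depends on a shared set of promoter elements, among them a CRE-like X2 element and the CCAAT-containing Y box bound by NF-Y, and class I genes carry in addition an NF-kappa B site and an interferon-stimulated response element. In bulk tissue, fewer cells of a type and less RNA per cell cannot be told apart.

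To show how the class I members differ at their start sites, promoter windows were taken from RefSeq (build GRCm38.p6). They ran from 250 bases before to 50 after the start. Windows of 8 of the 10 members were used, and none of H2-Ab1 and Cd74. The search skipped the chromosome of Cd74, so whether the source held a window for it was not checked. Of the 5 windows below, H2-K1 and H2-D1 are the most highly expressed heavy chains, H2-Q10 is the only member with a difference from sham of about 2-fold, and B2m and H2-Aa represent the light chain and class II. They lie on the minus strand of chr17:34000298-34000597 (H2-K1), the plus strand of chr17:35262844-35263143 (H2-D1), the plus strand of chr17:35469839-35470138 (H2-Q10), the plus strand of chr2:122147437-122147736 (B2m) and the minus strand of chr17:34287774-34288073 (H2-Aa). Capitals mark matches, on either strand, to GGGGATTCC (the NF-kappa B site of the class I enhancer), GTTTCNNTT (interferon response element), TGACG (CRE core) and CCAAT (Y box).
H2-K1: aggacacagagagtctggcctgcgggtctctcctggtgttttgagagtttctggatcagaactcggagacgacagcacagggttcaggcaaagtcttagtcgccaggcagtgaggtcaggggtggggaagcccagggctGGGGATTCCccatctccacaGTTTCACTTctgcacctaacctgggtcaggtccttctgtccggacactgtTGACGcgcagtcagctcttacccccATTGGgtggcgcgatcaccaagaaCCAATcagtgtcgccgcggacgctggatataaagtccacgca
H2-D1: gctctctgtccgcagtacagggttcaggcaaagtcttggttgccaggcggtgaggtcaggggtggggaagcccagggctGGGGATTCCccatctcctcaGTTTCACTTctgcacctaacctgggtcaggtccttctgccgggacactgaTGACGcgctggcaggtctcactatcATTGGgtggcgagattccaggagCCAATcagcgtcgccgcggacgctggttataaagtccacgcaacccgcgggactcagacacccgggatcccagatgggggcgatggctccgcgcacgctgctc
H2-Q10: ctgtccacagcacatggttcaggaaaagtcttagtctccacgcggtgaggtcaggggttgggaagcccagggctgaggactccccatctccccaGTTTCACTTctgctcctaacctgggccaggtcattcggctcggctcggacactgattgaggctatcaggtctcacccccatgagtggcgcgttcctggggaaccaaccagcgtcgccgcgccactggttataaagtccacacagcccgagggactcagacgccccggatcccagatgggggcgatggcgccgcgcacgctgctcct
B2m: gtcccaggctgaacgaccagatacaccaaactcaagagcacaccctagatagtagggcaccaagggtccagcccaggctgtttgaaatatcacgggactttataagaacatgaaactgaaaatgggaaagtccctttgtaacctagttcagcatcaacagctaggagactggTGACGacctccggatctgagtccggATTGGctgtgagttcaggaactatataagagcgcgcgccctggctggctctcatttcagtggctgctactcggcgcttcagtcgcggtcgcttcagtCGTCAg
H2-Aa: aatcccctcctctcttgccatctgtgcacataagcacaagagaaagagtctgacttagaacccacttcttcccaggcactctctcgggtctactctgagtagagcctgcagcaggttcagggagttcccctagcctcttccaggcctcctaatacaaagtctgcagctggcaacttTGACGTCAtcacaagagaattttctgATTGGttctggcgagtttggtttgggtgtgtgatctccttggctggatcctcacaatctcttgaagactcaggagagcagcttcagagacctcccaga

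The H2-K1 and H2-D1 windows each held 1 kappa B match, 1 interferon response element, 1 CRE core and 2 Y boxes. The H2-Q10 window, which had 87.3% identity to that of H2-D1 over the aligned bases, held the interferon response element only. At the place of the kappa B match it differed from H2-D1 by 2 substitutions, G2A and T6C, counted from 1 at the 5′ end of the 9 motif bases, and at the place of the second Y box by T5C, counted likewise over the 5 bases of CCAAT. B2m held 2 CRE cores and 1 Y box, H2-Aa 2 overlapping cores that together spell the palindromic CRE and 1 Y box, H2-Eb1 2 Y boxes, H2-T23 1, and H2-DMa 1 in the second of its 2 windows. Over all 32817 promoter windows of this length, 0.25% held the kappa B letters, 5.76% the interferon response element, 20.8% the CRE core and 37.4% a Y box. These matches describe the letters in the windows and say nothing of factor binding in these kidneys.

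The libraries were made by Massive Analysis of cDNA Ends (MACE), in which each mRNA molecule gives a fragment from its 3′ end with a molecular identifier. Total counts were 2280618 to 3786275 per kidney, and levels are given as CPM, counts scaled to a common library size after TMM normalization, and were not divided by transcript length. Because class I genes are near copies of each other, the last 300 bases of the longest coding transcript of each member in GENCODE M21 were compared with all transcripts of other genes. No 75-base stretch of the ends of H2-K1, H2-D1, H2-Q10, B2m or any of the 5 class II members occurred in another gene. In H2-T23, 28.8% of the 75-base stretches did, in genes such as Rab33b and Hook2, and among 50-base stretches the share was 50.6% for H2-T23, 17.1% for H2-D1 and 0.797% for H2-K1. The class I paralogs H2-T10 and H2-T22 shared 25.7% of their 75-base stretches with each other, and H2-Q4 and H2-Q6 shared 20.4% and 20.8% with other genes, so the counts of these 4 genes and of H2-T23 are uncertain. Only exact matches were compared. The counts of the other heavy chains are therefore not shown to be free of reads from near copies. The read length is not given in the sources used here.

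Classical class I and B2m were abundant in every kidney and differed little between groups. H2-K1, the leading heavy chain, ranged from 237 to 310 CPM in sham kidneys (median 269), from 228 to 314 at 5d (median 255) and from 232 to 320 at 28d (median 278). The 3 groups overlapped almost completely. H2-D1 ranged from 142 to 167 CPM in sham kidneys (median 156), from 141 to 178 at 5d (median 149) and from 139 to 205 at 28d (median 161), and only kidney 1 at 5d and kidney 2 at 28d lay above all sham kidneys. B2m lay between 302 and 366 CPM in sham kidneys (median 324), between 275 and 381 at 5d (median 295), with 5 of 8 kidneys below all sham kidneys, and between 294 and 386 at 28d (median 336).

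These 3 genes also gave the most precise estimates. The log2 fold change of H2-K1 was -0.054 at 5d (SE 0.068, 95% interval -0.19 to 0.085) and 0.016 at 28d (SE 0.074, -0.13 to 0.17). That of H2-D1 was -0.017 at 5d (SE 0.061, -0.14 to 0.11) and 0.083 at 28d (SE 0.066, -0.051 to 0.22). B2m differed from sham by -0.080 at 5d (SE 0.064, -0.21 to 0.050) and by 0.051 at 28d (SE 0.069, -0.089 to 0.19). The intervals therefore leave room for changes of H2-K1, H2-D1 and B2m of at most 1.16-fold upwards and to no less than 0.864-fold downwards. The adjusted p-values of these 3 genes in edgeR's quasi-likelihood test against sham were between 0.793 and 0.982.

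**Figure D1:**
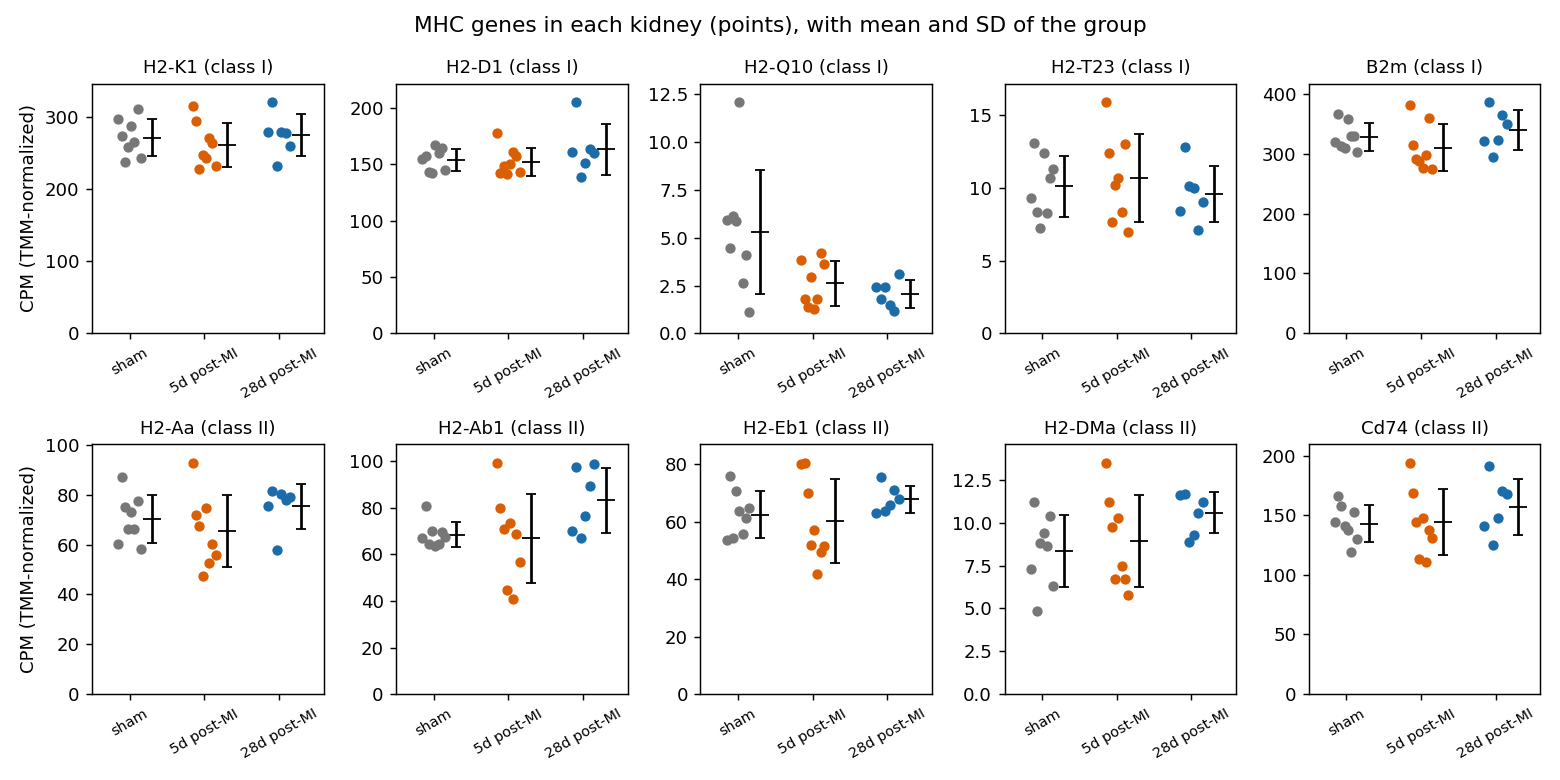
Level of each of the 10 MHC genes in every kidney, in TMM-normalized CPM on axes that start at 0; points are single kidneys of the 3 groups, sham and the infarction groups at 5d and 28d, and bars show the group mean with its SD. H2-Q10 is lower on average in both infarction groups (means 2.61 and 2.06 CPM) than in sham (5.29 CPM) with overlapping points. H2-Aa, H2-Ab1, H2-Eb1 and Cd74, and also B2m, spread more widely at 5d than in sham.

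H2-T23, which encodes the Qa-1 heavy chain recognised by NK cell receptors of the CD94/NKG2 family, was expressed at a much lower level. It ranged from 7.23 to 13.1 CPM in sham kidneys (median 9.98), from 6.97 to 15.9 at 5d (median 10.5) and from 7.10 to 12.8 at 28d (median 9.52), which corresponds to 18 to 46 reads per kidney. Its log2 fold change was 0.071 at 5d (95% interval -0.25 to 0.40) and -0.068 at 28d (-0.43 to 0.29). Neither differed from sham beyond the spread between kidneys, with adjusted p-values of 0.954 and 0.963 in edgeR.

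H2-Q10, which encodes a soluble class I molecule best known as a product of the liver, was the member with the largest difference from sham in both contrasts. Its levels in the 8 sham kidneys were 1.10 CPM at the lowest, 5.18 at the median and 12.1 at the highest. At 5d they were 1.29, 2.37 and 4.20 CPM, and at 28d 1.18, 2.09 and 3.11 CPM. All 8 kidneys at 5d and all 6 at 28d lay below the sham mean of 5.29 CPM, but none lay below the lowest sham kidney, replicate 8. These levels rest on few reads, 4 to 36 in sham kidneys, 3 to 12 at 5d and 3 to 10 at 28d, and 4.48% of the tested genes had a lower mean level.

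The log2 fold change of H2-Q10 was -0.998 at 5d (SE 0.32, 95% interval -1.66 to -0.34) and -1.31 at 28d (SE 0.38, -2.08 to -0.54). H2-Q10 passed the count filter through the sham kidneys, and failed it when the infarction groups were fitted alone. Its p-values and intervals therefore depend on selection by the group where it was highest and are given with that limit. The unadjusted p-values were 0.00418 and 0.00158, and the adjusted p-values 0.423 and 0.262 in edgeR, so that the gene did not pass the test at either time. It did pass, at adjusted p-values of 0.0368 at 5d and 0.0079 at 28d in edgeR, when genes with low counts were kept in the fit. At 28d it also passed without sham replicate 8, at an adjusted p of 0.0378 in edgeR. These fits called 80, 94 and 29 genes in all, against 9 at 5d and 3 at 28d with the filter and all kidneys. Without sham replicate 5, the highest kidney, the log2 fold changes were -0.71 and -1.02. The direction was the same in the 32 alternative fits at each time. These fits share most of their kidneys, and leaving out a kidney of the group not compared hardly moves the estimate. Their agreement is therefore not independent support.

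The 5 genes whose levels followed H2-Q10 most closely across the kidneys were Elovl6, Acaca, Fasn, Tkt and Plin2. After subtraction of each group's mean, the highest Pearson correlations over the 22 kidneys were with Elovl6 (r = 0.871), which elongates fatty acids, Acaca (0.854), which makes malonyl-CoA, Fasn (0.848), the fatty acid synthase, Tkt (0.839), the transketolase of the pentose phosphate pathway, and Plin2 (0.817), a lipid droplet coat protein. These 5 correlations are a description, since the genes were picked for them, and the points share the library and depth of each kidney. The log2 fold changes of Elovl6, Acaca and Fasn were -0.75, -0.97 and -1.11 at 5d and -0.85, -1.06 and -1.44 at 28d, with adjusted p-values from 0.361 to 0.504 in edgeR. Tkt was at -0.46 and -0.58 (adjusted p 0.306 and 0.176 in edgeR) and Plin2 at -0.21 and -0.067 (0.624 and 0.918), and none of the 5 passed the test.

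Adipocyte markers moved with H2-Q10. The summed level of 7 adipocyte markers (Adipoq, Plin1, Fabp4, Cidec, Lep, Retn and Cfd) ranged from 386 to 1950 CPM in sham kidneys (median 1150), from 193 to 1430 at 5d (median 1030) and from 379 to 980 at 28d (median 536). All 6 that were tested were lower than sham at both times, with 0 passing the test and 4 at an unadjusted p under 0.05 at 28d, against 8.69% of all genes. Across the 22 kidneys the group-centred correlation of this sum with H2-Q10 was r = 0.748 (Spearman's rho 0.711), and r was 0.829 within sham, 0.738 within 5d and 0.969 within 28d kidneys. The 5 genes most like H2-Q10 followed the same sum, with r of 0.874 for Fasn, 0.841 for Acaca, 0.825 for Tkt, 0.760 for Elovl6 and 0.634 for Plin2. For H2-Q10 without the 2 kidneys farthest from the median of the sum, sham replicate 8 and 5d replicate 6, r was 0.641. With the log2 sum as a covariate, an alternative chosen after seeing the data, the log2 fold change of H2-Q10 was -0.62 at 5d and -0.54 at 28d, with adjusted p-values of 0.67 and 0.86 in edgeR. The sum of 10 hepatocyte markers had an r of -0.020 with H2-Q10, but this sum was almost all Ttr (38631 reads over all kidneys). Of the other 9, Fga had 1039 reads, Apoh 518, Fgg 317, Apoa2 306, Alb 229 and Apoa1 122, and Fgb, Serpina3k and Ahsg had 28, 13 and 4. The part of adipocyte RNA in the H2-Q10 difference was not tested beyond these values.

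**Figure D2:**
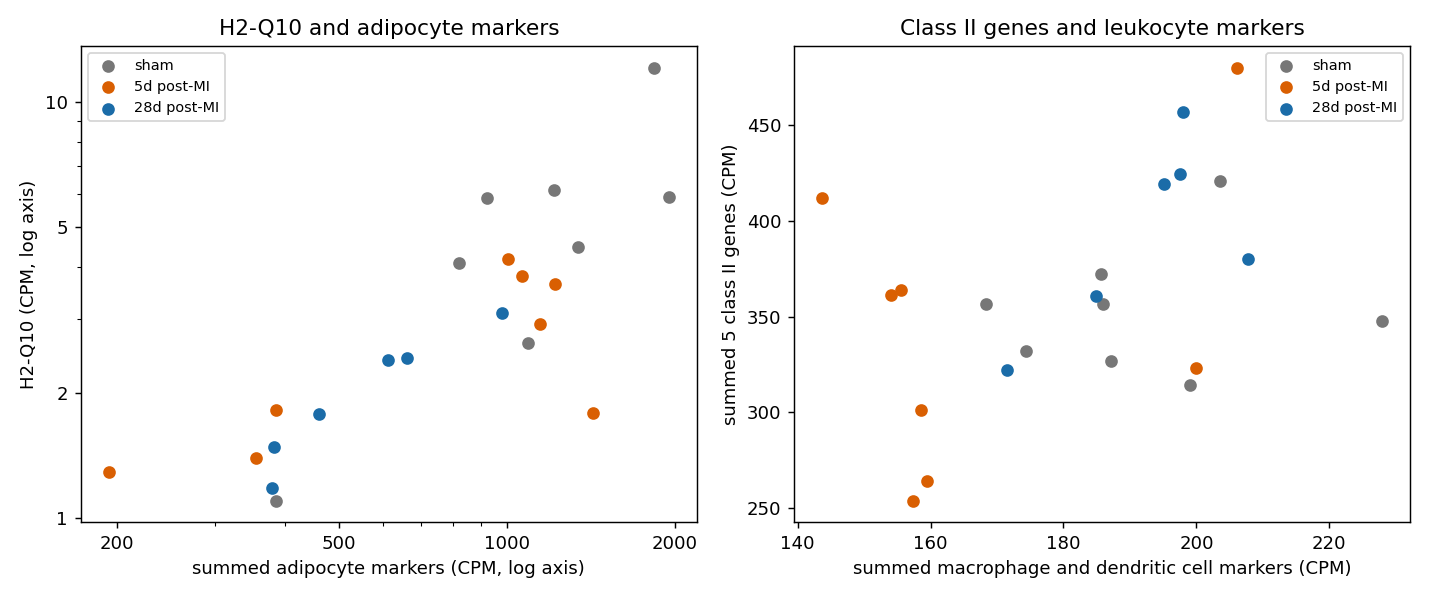
Left, H2-Q10 against the summed level of 7 adipocyte markers in each kidney, both in CPM on log axes (r = 0.748 after subtraction of group means). Right, the summed level of the 5 class II genes against the summed level of macrophage and dendritic cell markers, in CPM on linear axes that do not start at 0 (r = 0.318); each point is 1 of 22 kidneys, coloured by group.

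Class II genes were readily detected in every kidney. In sham kidneys, H2-Aa ranged from 58.1 to 87.3 CPM (median 69.5), H2-Ab1 from 63.8 to 80.9 (median 67.5), H2-Eb1 from 53.5 to 76.1 (median 62.6), and Cd74 from 119 to 166 (median 142). H2-DMa was the least abundant, at 4.83 to 11.2 CPM (median 8.75). H2-Ea, the alpha chain that would pair with H2-Eb1 and that C57BL/6 mice do not express, had 1 read in all 22 kidneys, and H2-Oa and H2-Eb2 had 3 and 4 reads.

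At 5d post-MI the class II means stayed close to sham while the kidneys spread apart, least for H2-DMa. H2-Aa ranged from 47.5 to 92.8 CPM (median 63.8) and H2-Ab1 from 40.9 to 99.4 (median 69.9), with kidney 1 above and kidneys 5, 7 and 9 below all sham kidneys for H2-Ab1. H2-Eb1 lay between 41.8 and 80.5 CPM (median 54.5), with 2 kidneys above and 4 below the whole sham range. Cd74 ranged from 111 to 194 CPM (median 141) and H2-DMa from 5.76 to 13.5 (median 8.60). The log2 fold changes against sham were -0.11 for H2-Aa (95% interval -0.35 to 0.13), -0.046 for H2-Ab1 (-0.35 to 0.26), -0.055 for H2-Eb1 (-0.29 to 0.18), 0.077 for H2-DMa (-0.27 to 0.42) and 0.00073 for Cd74 (-0.22 to 0.22). In edgeR no adjusted p-value of the 5 genes was below 0.88.

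The SD of log2 H2-Ab1 was 0.426 among kidneys at 5d and 0.109 among sham kidneys, a ratio of 3.89 that exceeded the ratio of 99.7% of the tested genes. The ratio was 1.89 for H2-Eb1, 1.79 for B2m, 1.74 for Cd74 and 1.60 for H2-Aa, and the median over all genes was 1.09. H2-K1 (1.19), H2-D1 (1.26), H2-T23 (1.34) and H2-DMa (1.09) were nearer that median, and H2-Q10 (0.634) was below it. The sham SD of H2-Ab1 was the smallest of the 5 class II genes, which raises its ratio. At 28d the ratio to sham was 2.21 for H2-Ab1, 1.41 for Cd74, 0.956 for H2-Aa, 0.549 for H2-Eb1 and 0.435 for H2-DMa, beside a median of 1.07 over all genes. The ratios at both times are descriptions without a test. The sum of the 5 class II genes ranged from 254 to 480 CPM at 5d, against 314 to 421 CPM in sham kidneys, with kidney 7 at the low and kidney 1 at the high end. The adipocyte marker sum differed among these kidneys too. Kidneys 5, 7 and 9, with class II sums of 264, 254 and 301 CPM, held 1145, 1428 and 1219 CPM of adipocyte markers, and kidneys 2, 3 and 6, with class II sums of 412, 362 and 364 CPM, held 385, 355 and 193 CPM. Kidneys 1 and 8, with class II sums of 480 and 323 CPM, held 1063 and 1006 CPM. The group-centred correlation of the sums over 22 kidneys was r = -0.291 (Spearman's rho -0.356), with 0.174 within sham, -0.461 within 5d and -0.172 within 28d kidneys, and -0.472 without kidney 1 at 5d. The part of adipocyte RNA in the class II spread was not tested.

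At 28d post-MI every class II gene had a higher mean than in sham kidneys, and none passed the test. H2-Ab1 ranged from 67.0 to 98.9 CPM (median 83.0), and 3 of 6 kidneys lay above all sham kidneys. H2-DMa ranged from 8.88 to 11.7 CPM (median 10.9), again with 3 of 6 above all sham kidneys, and all 6 above the sham mean of 8.37. H2-Aa lay at 57.7 to 81.4 CPM (median 78.4), H2-Eb1 at 63.1 to 75.7 (median 66.8) and Cd74 at 125 to 191 (median 158). Of these 6 kidneys, 3 lay above all sham kidneys for Cd74 and none for H2-Aa and H2-Eb1. The log2 fold change was 0.28 for H2-Ab1 (SE 0.15, 95% interval -0.037 to 0.61) and 0.33 for H2-DMa (SE 0.18, -0.036 to 0.69), with adjusted p-values of 0.639 and 0.632 in edgeR. It was 0.10 for H2-Aa (-0.15 to 0.36), 0.12 for H2-Eb1 (-0.14 to 0.37) and 0.13 for Cd74 (-0.11 to 0.37). With only sham and 28d kidneys fitted, the adjusted p-value of H2-Ab1 was 0.186 in edgeR and 0.088 in DESeq2, where 31 and 70 of all genes were called. None of the 5 class II estimates turned negative in 32 alternative fits, and the lowest for H2-Eb1 was 0.0076. The fits share most of their kidneys, and leaving out a 5d kidney hardly moves these estimates. The 5 genes also deviated together across kidneys, so the shared sign is not independent support.

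**Figure D3:**
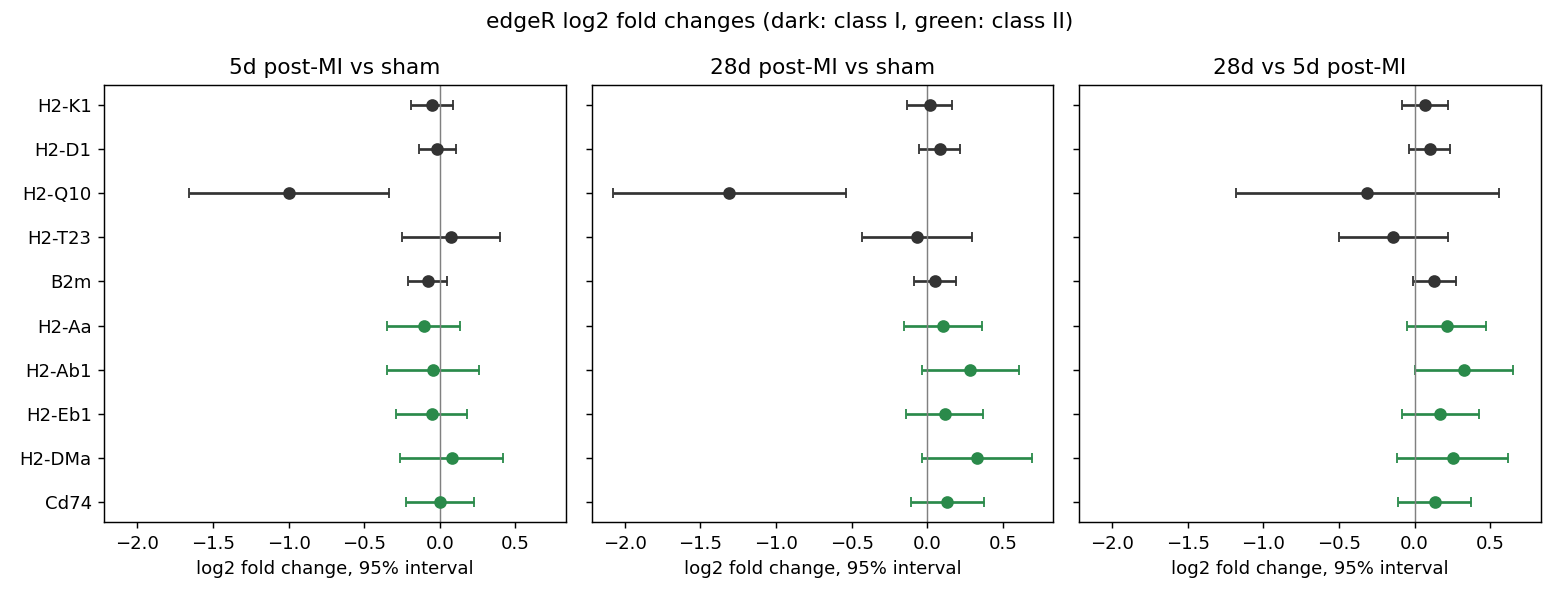
edgeR log2 fold changes of the 10 MHC genes in the 3 contrasts, with 95% intervals as horizontal bars; dark points are class I and green points class II genes. The intervals of H2-Q10 against sham lie below 0 (to -0.34 at 5d and -0.54 at 28d) although its adjusted p-values in edgeR are 0.423 and 0.262. H2-Q10 passed the count filter through the sham kidneys, which limits how these intervals can be read. All 5 class II estimates lie above 0 at 28d.

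As a list, 0 of the 10 genes passed the test at 5d post-MI, where 0.0704% of all 12780 genes (9 genes) were called, and 0 passed at 28d, where 0.0235% (3 genes) were. At an unadjusted p under 0.05, 1 of 10 (H2-Q10) was counted at 5d, against 7.89% of all genes, and 1 of 10 (H2-Q10) at 28d, against 8.69%. The median log2 fold change was -0.050 at 5d and 0.094 at 28d, beside 0.00034 and -0.00099 over all genes tested. DESeq2 on all kidneys also called 0 members in each contrast, with 36 genes called at 5d and 32 at 28d. The sum of 18 class I heavy-chain genes, without H2-Q8, H2-Q9 and H2-T9, which were not analysed here, and without any reads that the counting discarded, was 496 CPM ± 39.2 (SD, n = 8) in sham kidneys, 486 ± 45.8 (n = 8) at 5d and 509 ± 53.3 (n = 6) at 28d. H2-K1 and H2-D1 made up 425, 414 and 437 CPM of these sums.

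Between the infarction times, 0 of the 10 genes passed the test, where 0.415% of all genes (53) were called. H2-Ab1 was higher at 28d than at 5d by a log2 of 0.33 (95% interval 0.0065 to 0.65, unadjusted p 0.046, adjusted p 0.542 in edgeR) and was the 1 member of 10 at an unadjusted p under 0.05, beside 9.05% of all genes. All 5 class II estimates were above 0, with a median of 0.21 for class II and 0.070 for class I, beside -0.0045 over all genes. H2-Q10 differed by -0.31 (-1.18 to 0.56). Its group means were highest in sham and lowest at 28d. The intervals of both differences from sham excluded 0 without passing the adjusted test, and the interval between 5d and 28d included 0. H2-Q10 had passed the count filter through the sham kidneys, which limits how the intervals against sham can be read.

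Across individual kidneys the class II genes deviated together from their group means. Over the 22 kidneys, the 10 pairs of class II genes had group-centred correlations between 0.553 and 0.896 (median 0.716), and H2-K1, H2-D1 and B2m correlated at 0.711 to 0.756 with each other. Pairs of a class II gene with one of these 3 gave a median r of 0.489. H2-Q10 stood apart, with r from -0.092 to 0.309 with the other members (median 0.118). The median correlation of each class II gene with 11294 other genes above 5 CPM was between -0.00434 and 0.00265. A median does not tell how often single genes reach a high r, and Alkbh5, outside the MHC, reached 0.846 with H2-Ab1. Kidney 1 at 5d was the highest of its group for 8 of 10 genes, all but H2-Q10 and H2-Eb1. Without it, the median r was 0.640 for the class II pairs, 0.678 for the 3 class I pairs and 0.332 between the classes. At 28d, kidney 2 was the highest for 8 of 10 genes and kidney 3 the lowest for 7.

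**Figure D4:**
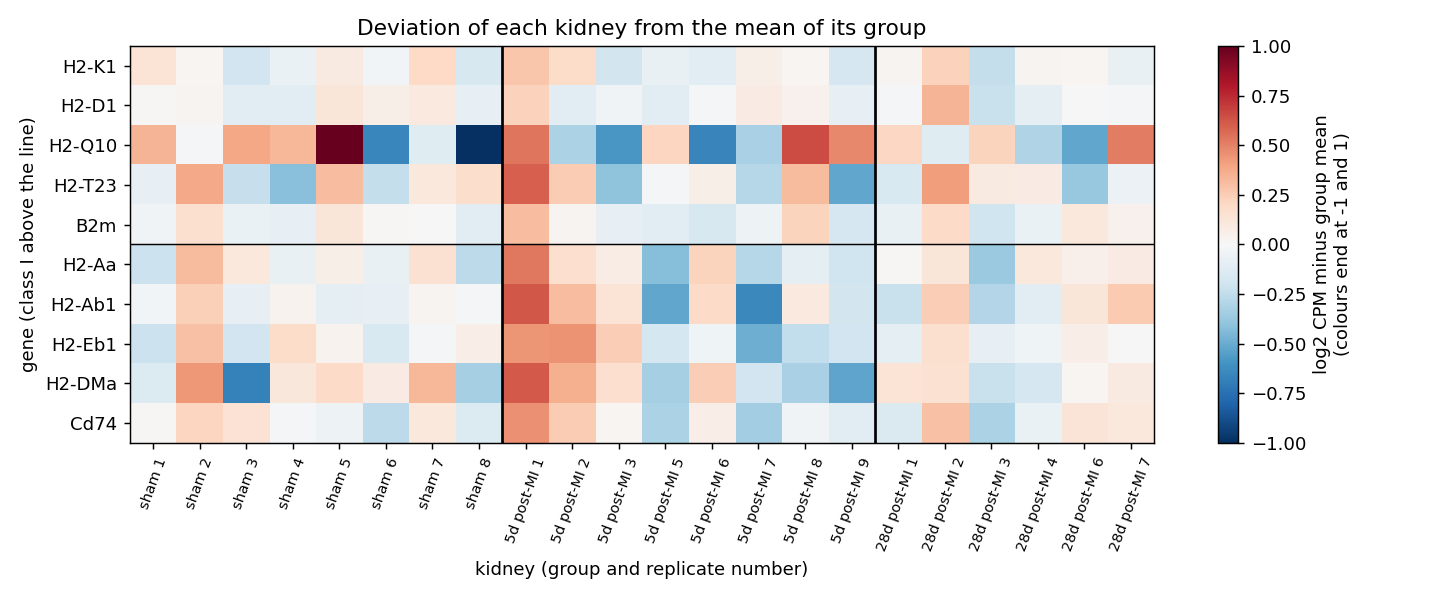
Deviation of each kidney from the mean of its group, in log2 CPM, for the 10 MHC genes (rows) in 22 kidneys (columns, by group and replicate number); red is above and blue below the group mean. Kidney 1 at 5d is above its group mean for all 10 genes, kidneys 5 and 7 at 5d are below it for all 5 class II genes, and H2-Q10 varies apart from the other members, most of all in sham kidneys 5 and 8.

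The genes most like H2-Ab1 across kidneys, by the same group-centred correlation, were Alkbh5 (r = 0.846), an RNA demethylase, H2-DMb1 (0.756), the partner chain of H2-DMa, Sox18 (0.753), an endothelial transcription factor, Rnf122 (0.742), a RING finger protein, and Gimap9 (0.735), an immunity-associated GTPase. Those most like H2-K1 were Zeb2 (0.818), a transcription factor of myeloid and other cells, Tgtp1 (0.797), an interferon gamma-induced GTPase, Cd52 (0.773), a leukocyte surface protein, Prex1 (0.762), an exchange factor for Rac, and Tctn1 (0.751), a protein of the ciliary base.

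Leukocyte markers were checked beside the class II genes. The sum of 18 macrophage and dendritic cell markers was 168 to 228 CPM in sham kidneys (median 187), 144 to 206 at 5d (median 158) and 172 to 208 at 28d (median 196). Of the 13 tested, 0 passed against sham at either time, and 4 at 5d and 1 at 28d were lower at an unadjusted p under 0.05, against 7.89% and 8.69% of all genes. The lowest p-values were those of C1qb, a complement chain, at 5d (log2 fold change -0.34, adjusted p 0.306 in edgeR) and Ptprc, the leukocyte antigen CD45, at 28d (-0.81, adjusted p 0.293 in edgeR). The group-centred correlation of this sum with the class II sum was r = 0.318 (Spearman's rho 0.219), and 0.047 without kidney 1 at 5d. Within the groups it was 0.128 in sham, 0.302 in 5d and 0.726 in 28d kidneys. For 7 endothelial markers it was 0.513 (rho 0.394), and 0.491 without that kidney, with 0.464 within sham, 0.638 within 5d and 0.061 within 28d kidneys. The dendritic cell genes Flt3, Xcr1, Clec9a and Cd209a had only 23 to 78 reads in all. B and plasma cell markers summed to 87.4 to 130 CPM at 28d, above all sham (26.1 to 58.4) and all 5d kidneys (16.0 to 73.0). Igkc alone had a mean of 79.0 CPM at 28d. Only 3 of these 9 markers were tested. Jchain and Igkc, both plasma cell products, rose between 5d and 28d by a log2 of 2.02 and 1.78 (adjusted p 0.00636 and 0.00885 in edgeR). Against sham they did not pass at 28d (adjusted p 0.0709 and 0.0631 in edgeR). Ighm did not rise with them, at 0.067 between the times and -0.39 at 28d against sham (adjusted p 0.968 and 0.619 in edgeR). The 8 T and NK cell markers summed to 2.15 to 12.8 CPM and none passed the count filter. The part of cell numbers in the class II levels was not tested.

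The machinery that feeds class I molecules was measured next to them. Of the 13 genes for peptide supply and loading, 0 passed against sham at either time. At 5d, 12 of 13 were lower, with a median log2 fold change of -0.11, and Psmb9, an immunoproteasome subunit, had the lowest p-value (-0.37, SE 0.17, unadjusted p = 0.0389, adjusted p 0.597 in edgeR). At 28d, 7 were higher and 6 lower, and Psmb8, another immunoproteasome subunit, had the lowest p-value (0.35, SE 0.15, unadjusted p = 0.0210, adjusted p 0.479 in edgeR). Calr, which encodes the chaperone calreticulin, rose from 520 CPM ± 43.8 (SD, n = 8) at 5d to 617 ± 60.2 (n = 6) at 28d (log2 0.25, SE 0.060, adjusted p 0.0469 in edgeR) and was the 1 gene of this list called in any contrast. Tap1, a subunit of the peptide transporter, had log2 fold changes of -0.19 and -0.086.

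Of the 17 other class I heavy chains listed, 4 passed the filter (H2-Q4, H2-Q7, H2-T10 and H2-T22) and 0 were called. H2-Q7 was the nearest to a change, at 10.5 CPM ± 1.62 in sham kidneys (SD, n = 8), 12.9 ± 4.48 at 5d (n = 8) and 12.9 ± 1.32 at 28d (n = 6), with adjusted p-values of 0.669 and 0.687 in edgeR. H2-K2 and H2-T3 had 0 reads, and a count of 0 in a kidney allows for up to 3. Of 6 tested class I-like genes, 0 were called. Fcgrt, which encodes the neonatal Fc receptor that retrieves albumin and IgG in the proximal tubule, had the lowest p-value at 5d (log2 0.21, SE 0.048, adjusted p 0.100 in edgeR), with 146 CPM ± 9.63 in sham kidneys and 168 ± 8.08 at 5d. At 28d it was Azgp1, a class I-like secreted glycoprotein (log2 0.48, SE 0.16, adjusted p 0.361 in edgeR).

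For class II, the other tested chains H2-DMb1 and H2-DMb2 differed from sham by 0.043 and 0.14 at 5d and by 0.11 and 0.16 at 28d, with adjusted p-values from 0.872 to 0.960 in edgeR. Among 7 tested genes for antigen processing and class II turnover, 0 were called, and the lowest p-values belonged to Lgmn, the endopeptidase legumain, at 5d (log2 0.14, SE 0.053, adjusted p 0.467 in edgeR) and to Ifi30, a lysosomal thiol reductase, at 28d (0.14, SE 0.087, adjusted p 0.693 in edgeR). Of 10 tested MHC transcription factors 0 were called. Ciita, the master regulator of class II, was at 2.41 CPM ± 1.11 (n = 8) in sham kidneys, 2.59 ± 1.47 (n = 8) at 5d and 2.65 ± 1.31 (n = 6) at 28d. Nfyb, a subunit of the Y box factor, had the lowest p-value at 5d (log2 0.34, SE 0.11) and Creb1, a CRE-binding factor, at 28d (0.23, SE 0.091), with adjusted p-values of 0.425 and 0.443 in edgeR. Nlrc5 and Rfx5 were below the count filter.

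Interferon-stimulated genes, of which Psmb9 is also in the peptide supply list, were mostly lower at 5d, and none passed the test. Of 17 tested, 16 had a negative estimate at 5d and 9 of these an unadjusted p under 0.05, against 7.89% of all genes in either direction, and the list's median log2 fold change was -0.37. Rtp4, an interferon-induced chaperone, was at 8.61 CPM ± 2.87 (n = 8) in sham kidneys and 4.55 ± 1.15 (n = 8) at 5d (log2 -0.92, SE 0.20, adjusted p 0.0696 in edgeR). At 28d, 11 of 17 were lower, with a median of -0.11, and Ifit1 had the lowest p-value (log2 -0.80, SE 0.25, adjusted p 0.293 in edgeR). H2-K1, H2-D1, B2m and H2-T23 were between -0.080 and 0.071 at 5d on the same scale.

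All kidneys carried the tubule RNA of the labelled tissue, with 8 tubule markers summing to 7610 to 8880 CPM. Sham replicates 2 and 6 held 969 and 721 CPM of 6 adrenal cortex markers, against 1.07 to 84.6 CPM in the other kidneys, and sham replicate 2 was the highest sham kidney for B2m, H2-T23 and all 5 class II genes. Without both kidneys, 0 members were called in any contrast. That fit called 1 gene among all genes at 5d, 1 at 28d and 53 between the times.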

How the data were processed

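The labels list 24 kidney libraries, of which 22 were used, because 4 value columns of the table, 2 of counts and 2 of scaled counts, share names and could not be assigned to a sample. The authors trimmed the reads with Cutadapt, mapped them and ran HTSeq per gene. The deposited values used here are whole-number counts per gene without normalization; the scaled columns beside them were not used. Bowtie2 is named in the submitters' processing notes. The paper and these notes name different genome builds, so no gene position is given from the table. The strand setting, whether reads sharing a molecular identifier were collapsed, and how reads matching several H2 genes were counted are not given in the sources used here.

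Counts were filtered by filterByExpr (minimum 10), normalized by TMM and fitted with edgeR 4.0.16 (robust quasi-likelihood, 3 groups, no covariate) in R 4.3.3. F tests were two-sided, p-values were adjusted by Benjamini-Hochberg over 12780 genes, and a gene was called at an adjusted p under 0.05. For standard errors, each log2 fold change was divided by the square root of its F, and 95% intervals use the t distribution with the fit's degrees of freedom. DESeq2 1.42.0 and the other alternatives are given in the closing section. In simulated counts for 28d post-MI vs sham with 200 of 12780 genes changed by a log2 of 1, edgeR called 177 of them and 9 unchanged genes. The changed genes were drawn at random from all tested genes, and 3 genes were called in the data at 28d. The adjusted threshold was thus easier to reach in the simulation, and its recovery does not carry over to genes with few reads such as H2-Q10. Correlations used log2 CPM with a prior count of 2. Symbols of 51948 identifiers came from GENCODE M21, and 152 of 155 listed genes matched. Named genes are the 10 members, in each gene list those called in any contrast or with the lowest p-value against sham, near copies or genes at 0, the 5 genes most like H2-K1, H2-Q10 and H2-Ab1, and others where a result turns on them (Tap1, Ciita, single markers), chosen after their values were seen. The members and lists were chosen with earlier results of these data known. Total counts were 2280618 to 3786275 per kidney, and a count of 0 allows up to 3, counting error only. Pairs of kidneys within a group differed by more than sampling noise (chi-squared per degree of freedom 1.73 to 7.84), so none was taken as a duplicate.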

Additional observations from a re-analysis of the deposited data

Results flagged for a closer look

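In 4 of the 30 sets of 6 or 8 values (10 genes in 3 groups), 1 kidney lay far from the others by Dixon's criterion, which chance alone gives in about 1 in 20 sets. In each, the value given is the gap to the nearest kidney divided by the range of the group. H2-D1 was high in kidney 2 at 28d post-MI (0.641 of the range, 205 CPM against a median of 161). H2-Q10 was high in sham kidney 5 (0.541, 12.1 CPM against a median of 5.18). H2-Aa was low in kidney 3 at 28d (0.750, 57.7 CPM against a median of 78.4). H2-Ab1 was high in sham kidney 2 (0.629, 80.9 CPM against a median of 67.5).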

How the results depend on the processing

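In no alternative was a member called between 28d and 5d post-MI, and H2-Q10 was the only member called against sham in any. DESeq2 on sham and 28d kidneys alone gave no adjusted p-value for H2-Q10, H2-T23 and H2-DMa, so it could not call them. With no filter on low counts, 1 member was called at 5d and 1 at 28d post-MI, both times H2-Q10, among 80 and 94 genes called in all. The cause was not tested. Leaving out 1 kidney at a time gave 0 to 1 called members at 28d (H2-Q10, among 29 genes, without sham replicate 8) and 0 at 5d. Over all alternatives the number of genes called among all genes was 1 to 80 at 5d, 0 to 94 at 28d and 26 to 160 between the times. With the adipocyte marker sum as a covariate, added after seeing the data, the log2 fold change of H2-Q10 was -0.617 at 5d, -0.535 at 28d and, with its sign turned, 0.0816 between the times. For the replicate block (group plus replicate number), the numbers of called members were 0, 0 and 0, beside 2, 24 and 80 of all genes. The log2 fold change of H2-Q10 was then -1.08 and -1.14. Kidneys with the same number in 2 groups showed little shared deviation (median r 0.045 over 18 pairs, -0.248 to 0.141). The median for other numbers was -0.000371 over 142 pairs (-0.419 to 0.435). No pairing by number was seen, but these correlations cannot exclude a weak shared batch.

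Estimates near 0 changed sign. Cd74 at 5d (0.00073) was -0.00012 with DESeq2, -0.00064 with RLE, -0.0107 without TMM, -0.00529 without the kidneys holding adrenal markers and -0.0293 with the adipocyte covariate, and H2-K1 at 28d was -0.0227 without TMM. Leaving out 1 kidney gave -0.0741 to 0.0478 for Cd74, -0.0517 to 0.000679 for H2-D1, -0.0353 to 0.145 for H2-T23, -0.151 to 0.0353 for H2-Ab1, -0.128 to 0.0106 for H2-Eb1 and -0.0317 to 0.154 for H2-DMa at 5d, and -0.0333 to 0.0598 for H2-K1 and -0.171 to 0.000865 for H2-T23 at 28d. Of 959 comparisons of a member's estimate with an alternative, 24 changed sign and 3 became calls. H2-Q10 did not pass the filter between 28d and 5d when those groups were fitted alone. Its estimates rest on 3 to 36 reads per kidney.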
